A study of Mus musculus with 6 samples.

Results

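Matrix-binding integrins are the cell-surface receptors by which stromal cells hold on to collagen, laminin and fibronectin. The genes described here are 6 alpha chains (Itga1, Itga3, Itga5, Itga8, Itga11 and Itgav), 3 beta chains (Itgb1, Itgb3 and Itgb5) and the integrin-like gene Itgbl1. They were chosen by symbol, with earlier results of these data known. Each matched 1 Ensembl identifier, and together they are 10 of the 43432 genes counted. Below, integrin genes means all 10, with Itgbl1 included. RNA from 3 libraries labelled FID was set against RNA from 3 libraries labelled control. Each title adds D3, and the labels spell out neither FID nor D3.

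Per the labels, both groups came from mice given tamoxifen at 12 to 13 weeks of age, at 100 ug per g of body weight on 5 days, followed by a pause of at least 1 week. The tissue label is skeletal muscle frozen in embedding medium, but the extraction protocol covers both total RNA and RNA of primary FAPs and does not say which library had which. The series concerns deletion of Igf1 in fibro-adipogenic progenitors (FAPs), the mesenchymal progenitor cells that live between muscle fibres. Neither the alleles and Cre driver of each group, nor the sex of each animal, nor whether a library is 1 animal or a pool, could be read from the labels used. P-values set the difference between groups only against the scatter of libraries within a group, and some of that scatter may be technical.

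An integrin is a pair of 1 alpha and 1 beta chain, and the pair decides which matrix protein is bound. Itgb1 is the beta chain shared by the collagen, laminin and fibronectin receptors, whereas Itgav can pair with several beta chains, among them Itgb1, Itgb3 and Itgb5. Inside the cell the beta chain binds talin and kindlin, which join it to the actin skeleton, and in muscle stroma these receptors anchor fibroblasts to the matrix they make. Itgav integrins are also known to release TGF-beta from its latent form.

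Gene counts ranged from 8750157 to 9676812 per FID library and from 5201853 to 10093757 per control library, with control 1 the shallowest. Skeletal muscle is the labelled source, but 10 markers of mature myofibres summed to 24.2 to 38.9 CPM in FID and 12.9 to 76.3 CPM in control (CPM, a gene's counts relative to all counts of its library after TMM scaling), against 37700 to 55800 CPM in FID and 74800 to 82800 CPM in control for 13 collagen genes. Whether the RNA came from whole muscle or from isolated cells is therefore not settled, and levels below are levels in these libraries, not in a known tissue. Igf1, the gene the model deletes, stood at 109, 107 and 81.6 CPM in FID 1, 2 and 3 and at 134, 60.4 and 106 CPM in control 1, 2 and 3. The log2 difference of -0.01 (FID over control, SE 0.28) had an adjusted p of 0.990 by edgeR, so the whole-gene count gave no check of the labels, and FID and control mean the libraries so labelled. Control 1 stood apart in vessel and tendon markers. Its mean log2(CPM + 1) was also the highest for other lists, among them collagen, laminin, FAP, satellite cell and myofibre genes. It was the highest library for 6 of the 10 integrin genes. A link between these was not tested, and fits without control 1 are given with the genes.

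Every integrin gene was lower on average in the FID libraries, and 0 of the 10 passed edgeR's quasi-likelihood test adjusted over all genes. All 10 genes passed the filter on low counts and had a log2 fold change (FID over control) below 0, from -0.90 for Itga8 to -0.17 for Itgb1, with adjusted p from 0.139 to 0.510. The median over the 10 genes was -0.51, beside -0.02 over the 12881 genes tested, of which 52.2% lay below 0, and it was -0.33 without control 1. Of all tested genes 0% passed edgeR's adjusted threshold of 0.05. At an unadjusted p under 0.05, 19% differed in either direction and 9.21% were lower in FID, and the lower ones included 4 of the 10 integrin genes (Itga1, Itga11, Itgav and Itgbl1). With DESeq2, 1 of the 10 genes passed the adjusted threshold, the integrin-like Itgbl1, which was lower in FID. None of the integrin chains among them passed (smallest DESeq2 adjusted p 0.0847, Itga1). Of its tested genes DESeq2 called 5.81% in either direction, 2.19% lower and 3.62% higher in FID. The groups did not overlap in 6 integrin genes (Itga1, Itga5, Itga11, Itgav, Itgb1 and Itgbl1), all with FID below control. Of all tested genes 12.3% showed a separation in that direction. These genes and the lists below were chosen with earlier results of these data known. Such counts therefore describe them and do not test them as a set. In RNA pooled over cells, fewer stromal cells and less RNA per cell cannot be told apart.

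**Figure D1:**
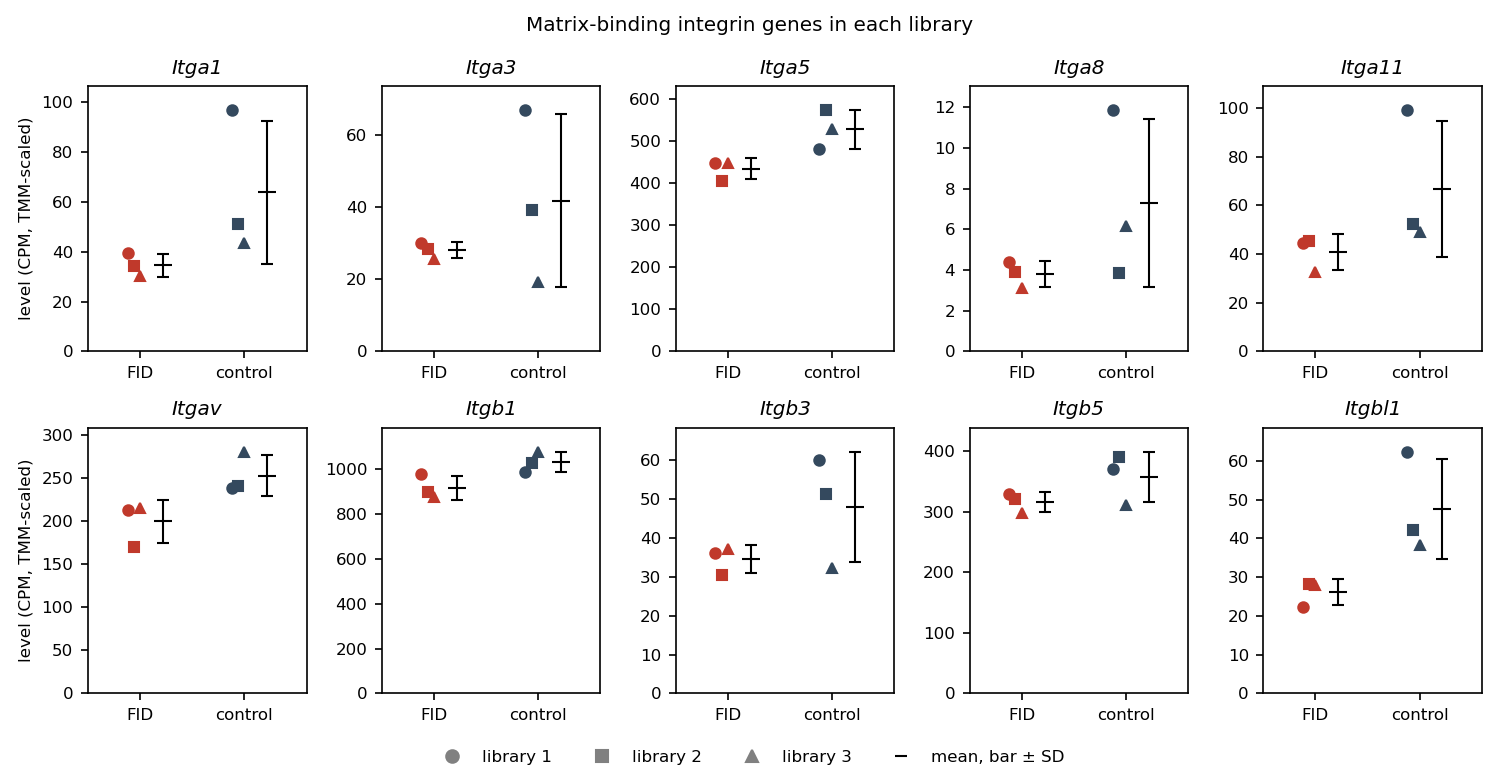
Level of each integrin gene (vertical axis, CPM after TMM scaling) in the 3 FID and 3 control libraries; points are libraries, the marker shape gives the library number and the bar the mean ± SD. Control 1 is the highest library for 6 of the 10 genes, and Itga1, Itga5, Itga11, Itgav, Itgb1 and Itgbl1 show no overlap between groups.

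Itgb1 was by far the most abundant of these transcripts when levels were divided by exon length. It averaged 224.5 ± 13.0 CPM per kb of exon in FID and 252 ± 11.0 in control (SD, n = 3 each), and it ranked first in all 6 libraries. Itga5 followed with 87.8 ± 5.04 in FID and 106.9 ± 9.26 in control, and Itgb5 with 88.9 ± 4.72 in FID and 100.4 ± 11.6 in control. The ranges of Itga5 and Itgb5 over the 6 libraries overlapped, so their order is not resolved. Itgav came next at 18.5 ± 2.36 in FID and 23.5 ± 2.19 in control, clear of Itgb5 above it and with rank 4 in each library. Its range met that of Itga11 only through control 1. Itga11, Itgbl1, Itgb3 and Itga3 had overlapping levels between 3.35 and 19.3 CPM per kb. Itga1, with 1.86 ± 0.250 in FID and 3.43 ± 1.55 in control, ranked ninth in each library, although its range overlapped that of Itga3. Itga8 was the scarcest, with 0.516 ± 0.0862 in FID and 0.989 ± 0.560 in control. With the longest transcript in place of merged exons, Itga1 averaged 3.15 CPM per kb in FID and 5.81 in control.

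**Figure D2:**
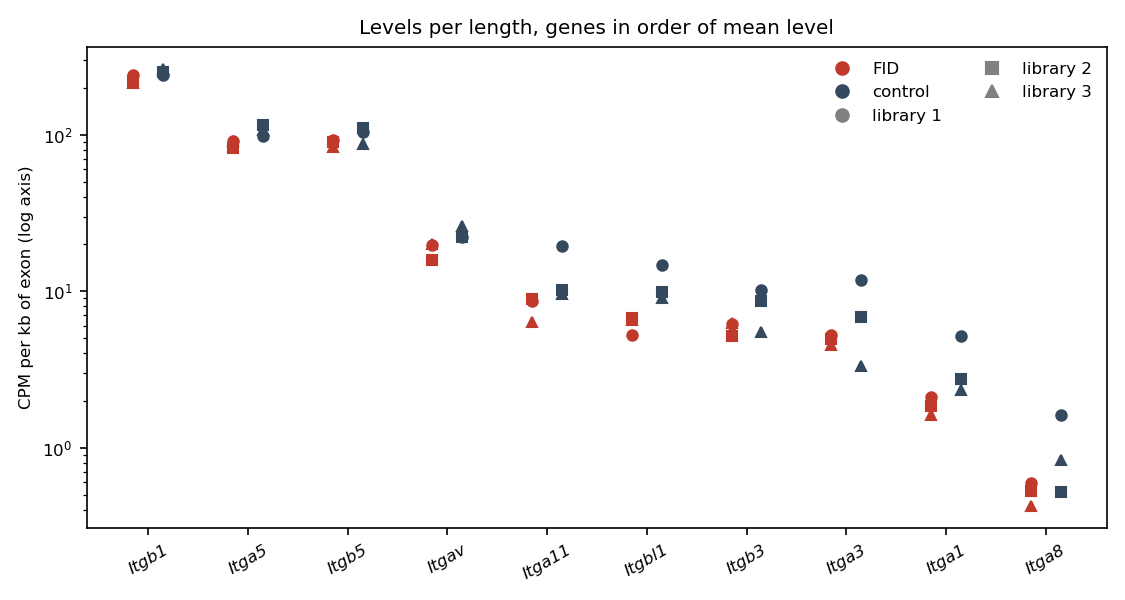
Level per length of the 10 genes (vertical axis, CPM per kb of exon, log scale), ordered by mean level, in FID libraries (left of each pair) and control libraries (right). Itgb1 lies above all others, Itga5 and Itgb5 share the next place, and Itga8 lies lowest.

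Among the 6 alpha chains, the fibronectin receptor chain Itga5 made up most of the summed level per length. Its share was 72.2 ± 1.07% in FID and 68.9 ± 6.12% in control, and the lowest value of all, 61.9%, was that of control 1. Itgav made up 15.2 ± 1.19% in FID and 15.2 ± 1.95% in control. Itga11 held 6.58 ± 1.34% in FID and 8.36 ± 3.38% in control, and Itga3 4.05 ± 0.370% in FID and 4.67 ± 2.61% in control. Itga1 held 1.53 ± 0.193% and 2.20 ± 0.959%, and Itga8 0.425 ± 0.0703% and 0.637 ± 0.353%, in FID and control. Shares therefore varied more among control libraries than among FID libraries for all 6 chains.

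The collagen receptor chains showed some of the larger differences. Itga1 (ENSMUSG00000042284, mm10 chromosome 13, 114953096 to 115101964, minus strand) pairs with Itgb1 and is known to prefer basement-membrane collagen. It stood at 39.3, 34.2 and 30.03 CPM in FID 1, 2 and 3 and at 96.7, 50.9 and 43.5 CPM in control 1, 2 and 3. All FID libraries lay below all control libraries, and control 1 was 2.05 times the mean of the other control libraries. The log2 fold change was -0.87 (SE 0.30, adjusted p 0.195), with a 95% interval of -1.58 to -0.17. Without control 1 it was -0.45 (SE 0.16, adjusted p 0.188). Exons of Gm49395 on the same strand cover 3.68% of its exon length.

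Itga11 (ENSMUSG00000032243, chromosome 9, 62677826 to 62783982, plus strand) is the fibroblast receptor chain for fibrillar collagen. It stood at 44.6, 45.5 and 32.5 CPM in FID 1, 2 and 3, against 99.1, 52.3 and 48.9 CPM in control 1, 2 and 3. The groups did not overlap, and control 1 again stood far above the rest. Its log2 fold change was -0.70 (SE 0.29, adjusted p 0.251), and -0.31 (SE 0.17, adjusted p 0.360) without control 1.

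Markers of vessel walls and tendon were also highest in control 1. The 12 endothelial markers summed to 1680 to 2640 CPM in FID and 1660 to 5530 CPM in control, and the 10 pericyte and smooth muscle markers to 1280 to 1510 CPM in FID and 1440 to 3000 CPM in control. The 8 tenocyte markers summed to 425 to 1170 CPM in FID and 923 to 2520 CPM in control. The median log2 fold changes of the endothelial, pericyte and tenocyte markers were -0.63, -0.68 and -0.79, and without control 1 they were -0.06, -0.19 and -0.33. The endothelial sums of control 2 and 3, 2490 and 1660 CPM, were close to the FID range. No marker of the 3 lists was at 0 in all libraries. Their part in the levels of the alpha chains was not tested.

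Itga3 (ENSMUSG00000001507, chromosome 11, 95044474 to 95076801, minus strand), a laminin receptor chain, differed by less than the spread between control libraries. It measured 29.97, 28.5 and 25.7 CPM in FID 1, 2 and 3 and 66.8, 39.2 and 19.1 CPM in control 1, 2 and 3. The FID libraries lay close together, inside the span of the control libraries. The log2 fold change was -0.56 (SE 0.39, adjusted p 0.469, 95% interval -1.48 to 0.36), and it was -0.06 (SE 0.29, adjusted p 0.929) without control 1.

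Of the chains that bind fibronectin and related proteins, Itga5 and Itgav had smaller fold differences that separated the groups. Itga5 (ENSMUSG00000000555, chromosome 15, 103344286 to 103366763, minus strand), the classical fibronectin receptor chain, measured 448, 405 and 448 CPM in FID 1, 2 and 3 and 481, 572 and 528 CPM in control 1, 2 and 3. All FID libraries lay below all control libraries, and here control 1 was the lowest control. FID over control, Itga5 had a log2 fold change of -0.28 (SE 0.13, adjusted p 0.281), and -0.35 (SE 0.12, adjusted p 0.185) without control 1.

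Itgav (ENSMUSG00000027087, chromosome 2, 83724397 to 83806916, plus strand), which binds vitronectin, fibronectin and latent TGF-beta, measured 213, 170 and 215 CPM in FID 1, 2 and 3 and 238, 240 and 279.6 CPM in control 1, 2 and 3. The groups did not overlap. For Itgav the log2 fold change was -0.34 (SE 0.15, adjusted p 0.262, 95% interval -0.68 to -0.0016), and -0.38 (SE 0.15, adjusted p 0.232) without control 1. Exons of a gene on the opposite strand, Gm13684, cover 5.90% of its exon length, and the strand setting of the counting was not stated.

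Itga8 (ENSMUSG00000026768, chromosome 2, 12106632 to 12301922, minus strand), a chain of mesenchyme and smooth muscle that binds nephronectin, had only 29 to 39 reads per FID library and 38 to 63 per control library. This came to 4.39, 3.88 and 3.13 CPM in FID 1, 2 and 3 and 11.9, 3.85 and 6.15 CPM in control 1, 2 and 3. The groups overlapped, because control 2 lay below FID 1 and FID 2. The log2 fold change of -0.90 (SE 0.42, adjusted p 0.292) had a wide 95% interval, from -1.87 to 0.08, and was -0.40 (SE 0.31, adjusted p 0.515) without control 1. Exons of the antisense gene E030013I19Rik cover 5.05% of its exon length.

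Of the beta chains, Itgb1 and Itgb5 had the smallest fold changes of all 10 genes. Itgb1 (ENSMUSG00000025809, chromosome 8, 128685654 to 128733200, plus strand) measured 976, 897 and 875 CPM in FID 1, 2 and 3 and 986, 1027 and 1075 CPM in control 1, 2 and 3. The groups did not overlap, but FID 1 and control 1 were nearly level, and with upper-quartile factors or library totals alone as the scaling they did overlap, which left 5 genes without overlap. Itgb1 had a log2 fold change of -0.17 (SE 0.12, adjusted p 0.476), with a 95% interval of -0.45 to 0.11. As a fold, the lower bound of that interval was 0.733 of the control level.

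Itgb5 (ENSMUSG00000022817, chromosome 16, 33829665 to 33949338, plus strand), a partner of Itgav for vitronectin, measured 329, 321 and 297 CPM in FID 1, 2 and 3 and 370.2, 389.7 and 311 CPM in control 1, 2 and 3. Control 3 lay within the FID range. Its log2 fold change was -0.18 (SE 0.135, adjusted p 0.510, 95% interval -0.49 to 0.14).

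Itgb3 (ENSMUSG00000020689, chromosome 11, 104608000 to 104670476, plus strand) pairs with Itgav in stromal and endothelial cells and with Itga2b in platelets. It measured 36.2, 30.4 and 37.2 CPM in FID 1, 2 and 3 and 60.1, 51.4 and 32.4 CPM in control 1, 2 and 3. Control 3 again lay within the FID range, so the groups overlapped. For Itgb3 the log2 fold change was -0.47 (SE 0.23, adjusted p 0.317), and -0.28 (SE 0.21, adjusted p 0.503) without control 1. The 9 platelet markers, of which 3 passed the filter, summed to 83.6 to 172 CPM in FID and 79.1 to 109 CPM in control. Most of that sum was Pf4. The markers Gp1ba, Gp1bb, Gp5, Gp6, Gp9 and Treml1 did not pass the filter. They averaged at most 0.548 CPM in FID and 0.565 CPM in control. The part of platelet RNA in the level of Itgb3 was not tested.

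Itgbl1 (ENSMUSG00000032925, chromosome 14, 123659971 to 123975618, plus strand) encodes a secreted protein with the cysteine-rich repeats of a beta chain, and is not known to form a receptor pair. Of the 10 genes it had the smallest p. It stood at 22.3, 28.3 and 27.9 CPM in FID 1, 2 and 3, against 62.3, 42.1 and 38.3 CPM in control 1, 2 and 3. All FID libraries lay below all control libraries. For Itgbl1 the log2 fold change came to -0.85 with SE 0.21 and a 95% interval of -1.35 to -0.36 (adjusted p 0.139 by edgeR), and it was -0.62 (SE 0.16, adjusted p 0.118) without control 1. DESeq2 gave the same log2 fold change of -0.85 with an adjusted p of 0.0214.

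**Figure D3:**
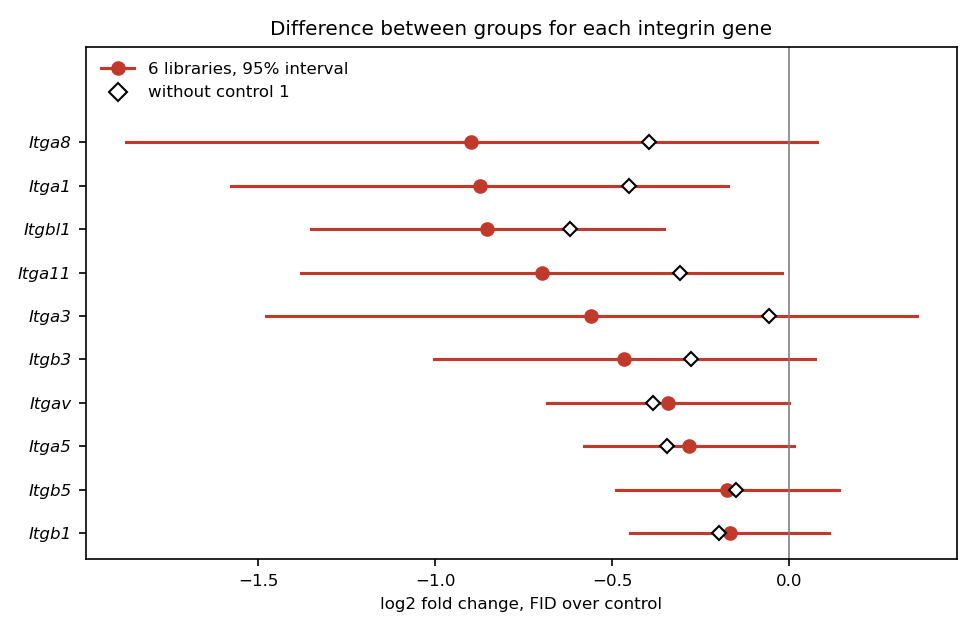
Log2 fold change, FID over control (horizontal axis), of each integrin gene from 6 libraries with its 95% interval (filled points and bars) and without control 1 (open diamonds). All points lie below 0, and the diamonds lie farther from 0 than the filled points for Itga5, Itgav and Itgb1 and closer to 0 for the other 7 genes.

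The relation of each alpha chain to its shared partner Itgb1 was compared within libraries, where no scaling factor enters. Itga1 had 4.03, 3.81 and 3.43 counts per 100 Itgb1 counts in FID 1, 2 and 3, against 9.81, 4.96 and 4.05 in control 1, 2 and 3. The groups did not overlap, yet FID 1 and control 3 were almost level. The mean log2 ratio differed by -0.63, and the exact two-sided permutation p of 0.10 is the smallest that 3 libraries against 3 can give (0.36 adjusted over 6 ratios). Without control 1 the difference was -0.26. Itga11 had 4.57, 5.07 and 3.72 counts per 100 Itgb1 counts in FID 1, 2 and 3 and 10.1, 5.09 and 4.55 in control 1, 2 and 3, a difference of -0.48 with overlapping groups (exact permutation p 0.30, adjusted 0.36), and of -0.12 without control 1.

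Itga5 and Itgav held more constant ratios among control libraries only. The SD of the log2 ratio there was 0.108 and 0.0788, against 0.619 to 0.968 for the other alpha chains, whose ratios were highest in control 1. In FID it was 0.099 and 0.187, inside the 0.055 to 0.228 of the others. Itga5 had 45.9, 45.1 and 51.2 counts per 100 Itgb1 counts in FID and 48.8, 55.7 and 49.1 in control 1, 2 and 3, a log2 difference of -0.11 (exact permutation p 0.30). Itgav had 21.8, 18.9 and 24.6 in FID and 24.1, 23.4 and 26.0 in control, a log2 difference of -0.18 (exact permutation p 0.30). The log2 differences for Itga3 and Itga8 were -0.23 and -0.63, both with overlapping groups (exact permutation p 0.70 and 0.30), and without control 1 they were 0.23 and -0.17. Itgb3 had 11.0, 9.47 and 12.5 counts per 100 counts of Itgb5 in FID and 16.2, 13.2 and 10.4 in control, a log2 difference of -0.26 (exact permutation p 0.30), or -0.10 without control 1. The groups overlapped in 6 of the 7 ratios, and with 3 libraries a group no ratio could reach a p of 0.05.

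**Figure D4:**
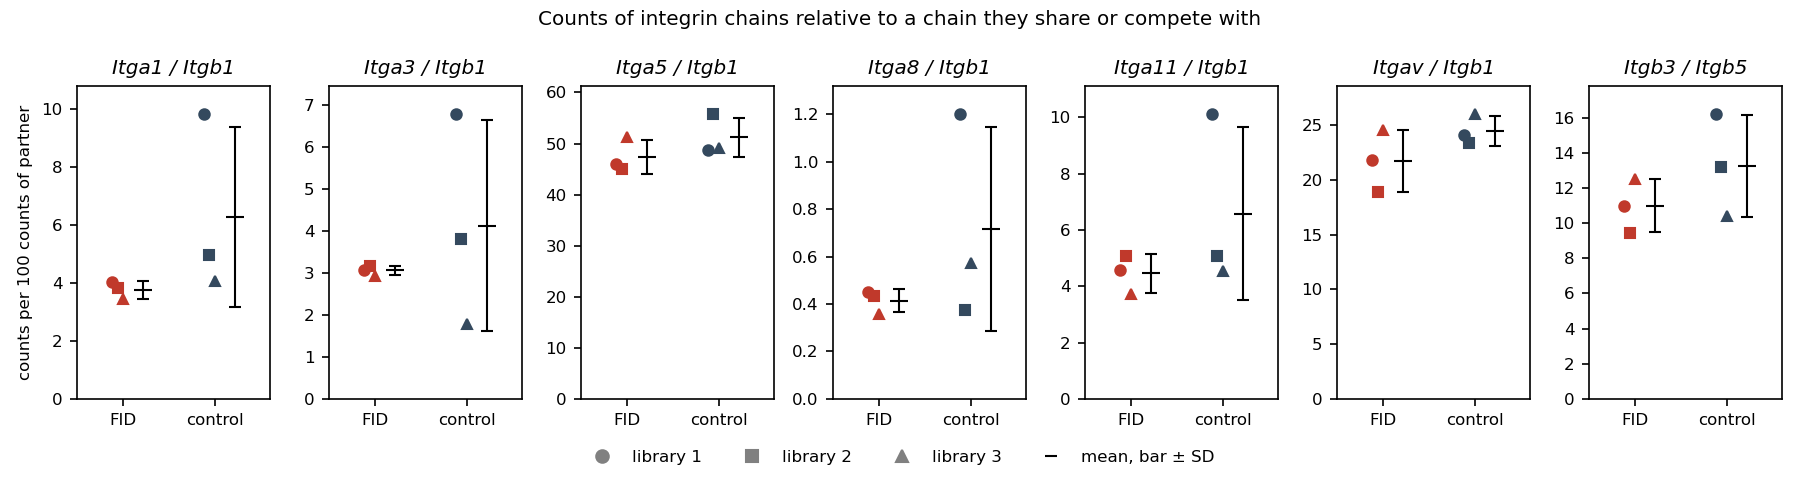
Counts of each alpha chain per 100 counts of Itgb1, and of Itgb3 per 100 counts of Itgb5 (vertical axes), in each FID and control library with mean ± SD. Control 1 stands above the other libraries for Itga1, Itga3, Itga8, Itga11 and the ratio of Itgb3 to Itgb5, but not for Itga5 and Itgav.

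Most transcripts that mark FAPs also averaged lower in the FID libraries. Of 17 FAP markers 15 had a log2 fold change below 0, with a median of -0.39, and 7 separated the groups with FID below control. Of all tested genes 52.2% lay below 0 and 12.3% separated the groups in that direction. The mean log2(CPM + 1) of the 17 markers was 7.24, 7.22 and 7.08 in FID 1, 2 and 3 and 7.57, 7.47 and 7.51 in control 1, 2 and 3. The integrin genes were also set against that mean within each library, a comparison added after the data were seen. Relative to it, Itgbl1 differed by -0.48 (log2, FID minus control) and Itgb1 by 0.17, both without overlap (exact permutation p 0.10, the smallest possible). Both separations were narrow. Itgbl1 stood at -2.23 in FID 3 and -2.22 in control 3, and Itgb1 at 2.59 in FID 2 and 2.56 in control 3. The other 8 genes overlapped, with differences from -0.45 for Itga1 to 0.17 for Itgb5. Ly6a, 1 of the 2 markers above 0, measured 497, 2327 and 1890 CPM in FID and 434, 446 and 661.5 CPM in control. With it left out, Itgbl1 overlapped at -0.37, Itgb1 stood at 0.275 and Itgb5 at 0.274 without overlap.

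**Figure D5:**
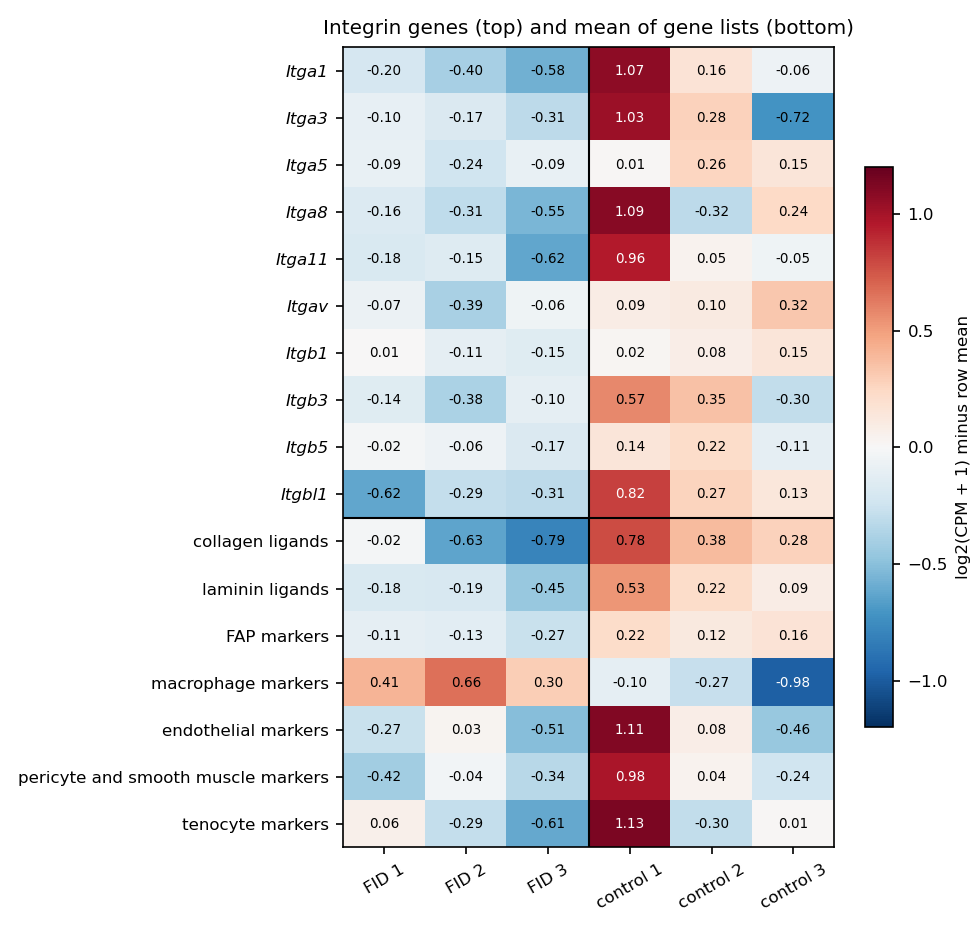
Log2(CPM + 1) minus the row mean over 6 libraries (colour and printed value) for the integrin genes (top) and for the mean of gene lists (bottom), with FID libraries left of control libraries. Itga1, Itga3, Itga8, Itga11, Itgb3 and Itgbl1 peak in control 1. So do the collagen, laminin, FAP, endothelial, pericyte and tenocyte lists, while macrophage markers are highest in the FID libraries.

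Profiles over the 6 libraries were compared by the root mean square difference of centred log2(CPM + 1). The closest pairs were Itga5 with Itgb1 (0.101), Itga5 with Itgav (0.121), Itga1 with Itga11 (0.123) and Itgb1 with Itgb5 (0.131). The measure is not scaled by spread. Genes that vary little, such as Itgb1, Itga5 and Itgb5, can therefore lie close without a shared profile. Outside the integrins, the genes nearest to Itga1 were Ppp1r16b (0.031), Atp2b4 (0.047) and the IGF-binding protein gene Igfbp4 (0.062). Those nearest to Itga11 were Kmt2c (0.026), Ssc5d (0.047) and Dot1l (0.065). The focal adhesion gene Trip6 was among the 3 nearest to Itgb1 (0.031), behind Snrnp70 (0.027), and the tendon gene Tnmd among the 3 nearest to Itga8 (0.11). The nearest genes lay farther off for Itga3, Itga8 and Itgbl1, with Rhbdf2 (0.099), Gabre (0.094) and Npas2 (0.080). These are descriptions over 6 libraries, in which close matches among 12881 genes are easily found.

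The promoters of Itga1 and Itga11, which had the closest profiles among the genes with larger differences, are shown beside that of Itgb1, which differed least. Each sequence is 300 bases from RefSeq on GRCm38.p6, 250 before the start site and 50 after it, written 5′ to 3′ on the gene's strand. Capitals mark matches on either strand to any of 5 motifs.
Itga1 (chr13:115101915-115102214, minus strand): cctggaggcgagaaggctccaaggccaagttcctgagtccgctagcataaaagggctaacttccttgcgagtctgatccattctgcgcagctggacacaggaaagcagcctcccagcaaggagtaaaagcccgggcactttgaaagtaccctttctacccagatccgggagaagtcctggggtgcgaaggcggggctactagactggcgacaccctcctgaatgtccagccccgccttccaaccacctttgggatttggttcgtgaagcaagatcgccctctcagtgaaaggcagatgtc
Itga11 (chr9:62677605-62677904, plus strand): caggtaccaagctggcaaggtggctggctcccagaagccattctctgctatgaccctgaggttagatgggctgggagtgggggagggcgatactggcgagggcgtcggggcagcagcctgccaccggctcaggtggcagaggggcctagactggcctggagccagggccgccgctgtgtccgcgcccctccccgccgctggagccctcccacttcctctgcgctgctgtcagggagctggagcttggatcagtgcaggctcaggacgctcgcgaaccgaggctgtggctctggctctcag
Itgb1 (chr8:128685404-128685703, plus strand): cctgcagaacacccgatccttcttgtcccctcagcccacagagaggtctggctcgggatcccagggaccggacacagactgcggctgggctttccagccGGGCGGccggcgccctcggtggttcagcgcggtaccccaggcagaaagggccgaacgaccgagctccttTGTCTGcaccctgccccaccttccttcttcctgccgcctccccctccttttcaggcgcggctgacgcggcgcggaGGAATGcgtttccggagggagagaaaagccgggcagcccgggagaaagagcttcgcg
The motifs searched were the GC box GGGCGG, the AP-1 site TGANTCA, the SMAD core CAGACA, the TEAD core GGAATG and the CArG box, the site of serum response factor. They occur in 35.7%, 7.81%, 21.0%, 14.7% and 1.63% of 32851 promoters of that length. The Itgb1 promoter holds 1 GC box, 1 SMAD core (as its reverse complement) and 1 TEAD core, whereas no match was found in these windows of Itga1 and Itga11. Of the 9 integrin genes with a promoter in the table, 6 hold a GC box. A match of letters does not show a bound site.

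The remaining integrin chains, those of leukocytes, epithelia, muscle and platelets, were mixed in direction. Of 18 chains 13 were tested, with 5 below and 8 above 0 and a median log2 fold change of 0.02, which was 0.42 without control 1 and -0.16 without control 3. The leukocyte chains Itgb2, Itgam and Itgb7 were higher in every FID library than in any control library, in a direction that 13.0% of all tested genes showed. Itgb2, the shared beta chain of leukocyte integrins, measured 233, 266 and 249 CPM in FID and 152, 143 and 132 CPM in control (log2 fold change 0.81, SE 0.12, adjusted p 0.122). Itgam had 0.72 (SE 0.13) and Itgb7 1.31 (SE 0.26), both with an adjusted p of 0.136. DESeq2 called all 3, with adjusted p of 7.03e-06 for Itgb2, 0.000407 for Itgam and 0.00126 for Itgb7. It called 3.62% of all its tested genes as higher in FID. EdgeR also called these chains with no filter on low counts (0.0258, 0.0442 and 0.0234) and without FID 1 (0.0362, 0.0371 and 0.0374). Those settings called 269 and 359 genes in all. The other edgeR fits and limma-voom called none of these chains. All 14 macrophage markers had a log2 fold change above 0, with summed levels of 7990 to 10700 CPM in FID and 3690 to 6180 CPM in control and no marker at 0 in all libraries. Their part in the leukocyte chains was not tested.

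Among chains found outside leukocytes, Itga9, a receptor chain for tenascin-C, was lower without overlap at 58.5, 50.5 and 46.9 CPM in FID and 97.3, 78.0 and 63.1 CPM in control (log2 fold change -0.61, SE 0.18, adjusted p 0.167). Itga2, a further collagen receptor chain with 23 to 58 reads per library, also separated the groups and had -0.89 (SE 0.415, adjusted p 0.294), or -0.44 without control 1. Its FID 1 and control 3 were nearly level, at 4.845 and 4.882 CPM. The groups overlapped for Itgb8, a partner of Itgav, at -0.40 (SE 0.24, adjusted p 0.395). The muscle laminin receptor chain Itga7 had -0.39 (SE 0.29) and Itgb4 of hemidesmosomes -0.61 (SE 0.58), but without control 1 they had -0.014 and 0.31. Itga6, a laminin receptor chain, had 0.02 (SE 0.22), and its sign turned without control 2 or control 3. Itga4 and Itgal of leukocytes had 0.56 (SE 0.28) and 0.38 (SE 0.36), with ranges of 0.31 to 0.86 and 0.13 to 0.90 when 1 library was left out. Itga2b of platelets had 0.49 (SE 0.345), or 0.019 without FID 3, and Itgax of dendritic cells 0.01 (SE 0.49), between -0.36 and 0.77 with 1 library left out. None of the chains in these sentences passed by edgeR or DESeq2, with edgeR adjusted p from 0.167 for Itga9 to 0.997 for Itgax.

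With all libraries, genes for the matrix ligands of these receptors differed more than the receptors themselves in median, a gap that was not tested. Without control 1 the medians were -0.82 for collagen, -0.68 for laminin and -0.29 for fibronectin-type ligands, beside -0.33 for the integrin genes. The gap was then absent for the fibronectin-type ligands. All 13 collagen genes lay below 0, with a median log2 fold change of -0.89, and 12 separated the groups with FID below control. Of all tested genes 52.2% lay below 0 and 12.3% separated the groups in that direction. Col1a1, Col6a3 and Col5a1, chains of fibrillar and beaded collagens, stood at -0.89 (SE 0.175), -0.78 (SE 0.16) and -1.08 (SE 0.24), each with an edgeR adjusted p of 0.136 and DESeq2 adjusted p of 0.00029, 0.000965 and 0.00268. Of 11 laminin genes 9 were tested, all below 0 with a median of -0.79, and 5 separated the groups with FID below control. Lamb2, Lama2 and Lama4, chains of the laminins of muscle and vessel basement membranes, had -0.79 (SE 0.16), -0.98 (SE 0.21) and -0.72 (SE 0.19), with adjusted p of 0.136, 0.136 and 0.143.

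Of 22 genes for fibronectin and other ligands of the RGD-binding receptors, 18 were tested, and 16 of them lay below 0 with a median of -0.66, or -0.29 without control 1. Spp1, osteopontin, went the other way at 1887, 2840 and 1996 CPM in FID and 1018, 1169 and 1280 CPM in control (log2 fold change 0.96, SE 0.19, adjusted p 0.136). Emilin1, an elastic fibre protein, and Tnc, tenascin-C, had -0.68 (SE 0.14) and -1.12 (SE 0.27), with adjusted p of 0.136 and 0.138. By edgeR 0 of the ligand genes passed the adjusted threshold. At an unadjusted p under 0.05, 12 collagen, 5 laminin and 7 RGD-type genes were lower and 1 RGD-type gene higher. Of all tested genes 9.21% were lower and 9.81% higher at that p. DESeq2 called 11 of the 13 collagen genes and 3 laminin genes as lower. Of the RGD-type list it called 5 as lower and 1, Spp1 (adjusted p 0.00125), as higher. It called 2.19% of all its tested genes as lower and 3.62% as higher. Of the ligand genes named here, edgeR with no filter on low counts also called Col1a1, Col5a1, Lamb2, Lama2, Spp1 and Tnc. Without FID 1 it called Col1a1, Col5a1, Lama2, Lama4 and Spp1. Those settings called 269 and 359 genes in all. The other edgeR fits and limma-voom called none of the ligand genes named here.

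The adaptor, signalling and membrane partners of integrins were mixed in direction. Of 44 such genes 42 were tested, 33 below and 9 above 0, with a median log2 fold change of -0.22, or -0.06 without control 1. FID lay below control without overlap in 12 of them and above in 5, beside 12.3% and 13.0% of all tested genes. Tln2, the talin isoform of muscle and other tissues, measured 58.4, 49.8 and 51.2 CPM in FID and 94.9, 112 and 129 CPM in control (log2 fold change -1.08, SE 0.15, adjusted p 0.122). Vcl, vinculin, and Dock1, a Rac activator downstream of adhesion, had -0.72 (SE 0.16, adjusted p 0.136) and -0.62 (SE 0.15, adjusted p 0.138). DESeq2 called 4 genes of the list as lower, among them Tln2 (adjusted p 5.45e-06), Vcl (0.0069) and Dock1 (0.0228). It called 2 as higher, Fermt3 (adjusted p 0.0232) and Parvg (0.0285). Of all its tested genes it called 2.19% as lower and 3.62% as higher. Of Tln2, Vcl and Dock1, edgeR called only Tln2, with no filter on low counts (0.0178) and without FID 1 (0.0351). The other edgeR fits and limma-voom called none of Tln2, Vcl and Dock1.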

How the data were processed

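Reads per gene were deposited as raw counts by the authors, 1 file per library. The submitters' processing notes name mm10 as build and, with no role or order, HTSeq, STAR, cutadapt, Bowtie2 2.5.4, SAMtools and DESeq2. Per the labels' protocols, a strand-marking kit was used on 1000 ng of RNA with integrity numbers above 5.6. Entries naming no gene (9.60% to 10.9% of each file) were left out. Of 43432 identifiers, 97.8% matched a symbol, and coordinates and exon lengths come from the GENCODE annotation of the same assembly.

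The main test was the quasi-likelihood F test of edgeR 4.0.16 on all genes kept by filterByExpr (10 counts at least, 15 in total), with TMM scaling, group as the sole term and Benjamini-Hochberg adjustment. SE is the absolute log2 fold change over the square root of F, and intervals use the matching t quantile. DESeq2 1.42.0 and limma-voom (limma 3.58.1) were alternatives. The code was tested on simulated data. Libraries were not paired, because the labels do not say that a shared replicate number marks a pair. Deviations from the group mean correlated at -0.0128, -0.320 and 0.343 for same-numbered libraries, and at -0.379 to 0.332 for the others. With 3 libraries a group this does not settle whether they were paired. The members and lists were chosen with earlier results of these data known. Named genes are the members, Igf1, tested integrin chains, the 3 genes of smallest p per other list, and the 3 nearest profiles per member, of which some are printed. A count of 0 allows up to 3 counts, 0.293 to 0.593 CPM, for counting error alone.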

Additional observations from a re-analysis of the deposited data

Results flagged for a closer look

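The share of reads set aside because they matched more than 1 place, which enters no comparison above, was higher in every FID library than in any control library. It ran from 3.67% to 4.49% of each file's total in FID and from 3.11% to 3.47% in control. It was singled out because it lies outside the gene counts and above the level of the control libraries, and its part in the integrin values was not tested.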

How the results depend on the processing

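All 129 log2 fold changes of the 10 integrin genes under 13 alternatives were below 0. The 1 that passed the threshold was the integrin-like Itgbl1 with DESeq2, which called none of the integrin chains among them. Itga8 gave no value with the filter of 50 counts in 3 libraries. Over all genes, edgeR called 269 with no filter on low counts and 0 to 359 with 1 library left out (359 without FID 1, 3 without control 1), and DESeq2 called 760. The median over the 10 genes was -0.42 with the replicate number as a block, which called 0 genes, and -0.33 without control 1. Integrin genes without overlap numbered 5 to 6 under other scalings and 6 to 9 with 1 library left out, where 3 against 2 separate more easily: 14.8% to 20.1% of all tested genes did so, and 20.1% without control 3, which gave the 9. Signs turned as follows, and the cause was not tested. Igf1 had 0.0154 with no filter, 0.0602 with limma-voom, 0.0445 with the replicate block, 0.113 without FID 3, 0.253 without control 1 and 0.0474 without control 3 (lowest with 1 library left out, -0.266). Itgb4 had 0.315 without control 1 (lowest -0.986), and Itga6 -0.000877 without control 2 and -0.162 without control 3 (highest 0.288). Itgax had -0.000728 with the stricter filter, -0.0115 with DESeq2, -0.156 without FID 2, -0.157 without control 2 and -0.362 without control 3 (highest 0.767). The Itga3 to Itgb1 log2 ratio differed by 0.23 without control 1 (lowest -0.735). Against FAP markers without Ly6a, Itga3, Itgav and Itgb3 had 0.0521, 0.0984 and 0.0225. Depth limits Itga8 most.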

Other observations

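Each receptor chain can be set beside a ligand it is known to bind, with pairs drawn from the lists above after their values were seen. Fn1, fibronectin, the ligand of the Itga5 receptor, measured 4054, 2016 and 1918 CPM in FID 1, 2 and 3 and 5761, 5148 and 5070 CPM in control 1, 2 and 3 (log2 fold change -1.0, SE 0.295, edgeR adjusted p 0.165), beside -0.28 for Itga5. Col4a1, a basement-membrane collagen bound by the Itga1 receptor, measured 1145, 788 and 683 CPM in FID and 3347, 1642 and 1635 CPM in control (-1.34, SE 0.33, adjusted p 0.139), beside -0.87 for Itga1. Both ligand genes separated the groups, and control 1 was the highest library for each.

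Npnt, nephronectin, a ligand of the Itga8 receptor, measured 11.0, 8.29 and 13.7 CPM in FID and 32.8, 15 and 9.47 CPM in control (-0.76, SE 0.44, adjusted p 0.381). Vtn, vitronectin, a ligand of the Itgav receptors, measured 27.95, 38.7 and 25.4 CPM in FID and 57.95, 29.4 and 18.65 CPM in control (-0.19, SE 0.39, adjusted p 0.832). The groups overlapped for both. With 1 library left out, Npnt ranged from -1.08 to -0.15 and Vtn from -0.48 to 0.35, so the sign of Vtn was not stable. The summed level per length of the 6 alpha chains was 0.532, 0.519 and 0.577 of the Itgb1 level in FID 1, 2 and 3 and 0.652, 0.631 and 0.566 in control 1, 2 and 3, so this ratio overlapped only between FID 3 and control 3.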
